A study of Mus musculus with 12 samples.

Results

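The genes described here encode phosphodiesterases that hydrolyse cAMP, measured in mpkCCDc11 cells, an immortalised mouse line from the kidney cortical collecting duct. They were chosen by symbol, as Pde4a, Pde4b, Pde4d, Pde7a, Pde8a, Pde1a, Pde1c and Pde3a. Of these 8 genes, 5 had a row among the 25208 genes of the table used here, and 4 (Pde4a, Pde4b, Pde4d and Pde7a) were among the 16508 genes tested. Pde8a had too few reads to be tested, and Pde1a, Pde1c and Pde3a were not analysed here. The 4 groups, of 3 libraries each, were Ctnnb1 siRNA with dDAVP, Ctnnb1 siRNA with vehicle, control siRNA with dDAVP, and control siRNA with vehicle. All cells were of this one line, had been transfected with 50 nM siRNA, grown on permeable supports for 4 days and kept without serum and hormones for 24 h. dDAVP, a peptide agonist selective for the vasopressin V2 receptor, was then given at 1 nM to the basolateral side for 24 h. Ctnnb1 encodes beta-catenin, an adhesion protein and the transcriptional coactivator of the Wnt pathway. The labels do not say that the libraries of a group came from separate cultures, so p-values cover only how far these libraries differ within a group, which may be technical variation.

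In principal cells of the collecting duct, vasopressin binds the V2 receptor, which acts through the G protein Gs to switch on adenylyl cyclases. The cAMP they make activates protein kinase A, which sends the water channel aquaporin-2 to the apical membrane and acts through CREB on transcription. Phosphodiesterases cut cAMP to AMP and so limit how far and how long the signal lasts. PDE4 enzymes are specific for cAMP, are inhibited by rolipram, and are held near protein kinase A by anchoring proteins. Each PDE4 gene has several promoters, giving long forms, whose upstream conserved regions protein kinase A can phosphorylate, and short forms. PDE7A and PDE8A also prefer cAMP but are insensitive to rolipram. PDE1 enzymes need calcium and calmodulin, and PDE3A is inhibited by cGMP. The comparison asked which of these genes follow V2-receptor stimulation, and whether loss of Ctnnb1 alters that.

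Libraries held 32997720 to 48935473 counted reads. Ctnnb1, the siRNA target, lay between 306 and 342 CPM (read counts scaled by library size with the TMM method) in the 6 Ctnnb1-siRNA libraries and between 745 and 811 CPM in the 6 control-siRNA libraries. Aqp2, which encodes aquaporin-2, had 155 to 187 reads per library with dDAVP and 0 to 6 with vehicle in Ctnnb1-siRNA cells, and 189 to 302 with dDAVP and 0 to 2 with vehicle in control-siRNA cells. The 9 collecting duct epithelial markers (such as Krt8, Cdh16 and Epcam) summed to 4278 to 5284 CPM in every library, and the 12 principal cell markers to 583 to 694 CPM, most of it Tfcp2l1 (443 to 546 CPM). Of the principal cell markers, Gata3, Avpr2, Scnn1a and Hsd11b2 lay between 15.6 and 71.2 CPM, while Aqp4 and Elf5 reached at most 0.356 and 0.0842 CPM. Scnn1g, Aqp3, Fxyd4 and Scnn1b reached at most 4.88, 1.71, 1.28 and 0.509 CPM. Of 9 intercalated cell markers 5 had a row, summing to 62.3 to 93.6 CPM, most of it Atp6v1b1 (53.0 to 67.1 CPM). Of 8 proximal tubule markers 3 had a row, summing to 71.0 to 96.2 CPM, nearly all Lrp2 (70.7 to 95.8 CPM). Of 7 leukocyte markers 4 had a row, and they summed to 21.2 to 27.9 CPM. Nearly all of that was Csf1r (21.0 to 27.7 CPM), and Ptprc, the defining marker, reached at most 0.274 CPM. Replicate 3 of Ctnnb1 siRNA with dDAVP differed from the other libraries of that group, with 1.52% of its reads from mitochondrial ribosomal RNA against 0.831% and 0.464% in replicates 1 and 2. Replicate 1 of control siRNA with dDAVP was also the highest of its group, with 1.27% against 0.933% and 0.746% in replicates 2 and 3. For Pde4d, Pde4a, Pde7a, Pde4c, Akap12, Pkia and Abcg2, a test without Ctnnb1-siRNA dDAVP replicate 3 is also given. The summed TPM, the shares of that sum and the correlations between genes include this library.

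Pde4b, Pde4d and Pde4a lie on chromosomes 4, 13 and 9. Because these 3 genes were each called higher with dDAVP in control-siRNA cells, a window of 250 bases before one RefSeq start site of each is shown (GRCm38.p6, plus strand, 5′ to 3′). Capitals mark CGTCA, which is TGACG read on the other strand and is the core of the cAMP response element bound by CREB. The window of Pde4b is chr4:102421305-102421554, that of Pde4a chr9:21183851-21184100 and that of Pde4d chr13:108653927-108654176.
Pde4b: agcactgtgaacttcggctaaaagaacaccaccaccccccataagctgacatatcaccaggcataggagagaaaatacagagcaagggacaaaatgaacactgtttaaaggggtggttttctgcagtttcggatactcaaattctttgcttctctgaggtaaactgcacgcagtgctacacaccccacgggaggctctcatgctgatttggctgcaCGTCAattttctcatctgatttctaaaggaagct
Pde4a: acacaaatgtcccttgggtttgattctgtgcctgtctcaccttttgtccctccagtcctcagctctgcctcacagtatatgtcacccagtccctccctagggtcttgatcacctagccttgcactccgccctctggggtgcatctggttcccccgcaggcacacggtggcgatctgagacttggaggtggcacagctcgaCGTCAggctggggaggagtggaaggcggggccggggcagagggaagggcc
Pde4d: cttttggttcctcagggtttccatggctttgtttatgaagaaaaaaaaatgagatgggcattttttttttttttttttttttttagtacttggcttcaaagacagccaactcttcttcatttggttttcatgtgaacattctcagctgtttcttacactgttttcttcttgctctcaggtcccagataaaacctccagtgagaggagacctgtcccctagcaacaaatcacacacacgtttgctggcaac
The core began 34 bases before the start site in the Pde4b window and 50 bases before it in the Pde4a window. The Pde4d window, the only one listed for that gene, held no TGACG on either strand. RefSeq listed 4 such windows for Pde4b, of which 1 held TGACG, and 3 for Pde4a, of which 1 held it. The windows shown for Pde4b and Pde4a are the ones that held it. Over the 16 windows of the 6 listed genes (Pde7a and Pde3a have no entry), 4 held TGACG on either strand, against 17.8% of all 32851 windows. Besides those of Pde4b and Pde4a, these were 1 window of Pde8a, too low to be tested, and 1 of Pde1a, not analysed here. The full element TGACGTCA, which contains TGACG on both strands, was in 0 of the 16 windows and in 1.55% of all windows. CTTTGAT, the letters bound by the TCF and LEF partners of beta-catenin, was in 0 of the 16 and in 3.21% of all windows. These matches describe letters only, and which start sites these cells used was not measured.

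Among the PDE4 genes on the list, Pde4b rose about 9-fold and Pde4d 3 to 4-fold with dDAVP under either siRNA, and Pde4a, called with control siRNA, by under 2-fold. Pde7a, by far the most abundant, did not pass the test. With Ctnnb1 siRNA, 2 of the 4 tested members were called higher with dDAVP and 0 lower, where 2.78% of all tested genes were called, 2.08% higher and 0.697% lower. With control siRNA, 3 of 4 were called higher and 0 lower, where 2.83% of all tested genes were called, 1.91% higher and 0.915% lower. The members were chosen with earlier results of these data known, so these shares describe and do not test. A call is a Benjamini-Hochberg adjusted p under 0.05 in edgeR's quasi-likelihood test over all tested genes. DESeq2 gave 2 calls with Ctnnb1 siRNA and 3 with control siRNA, the same counts as edgeR. In bulk RNA a lower level in each cell and fewer cells with the transcript cannot be told apart.

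Pde4b (gene ID 18578, chr4:102087332-102607275) encodes PDE4B, a cAMP-specific enzyme best known from immune cells and brain. In Ctnnb1-siRNA cells it had 36.3, 36.8 and 40.4 CPM with dDAVP, against 4.78, 4.33 and 3.92 CPM with vehicle. In control-siRNA cells it had 36.2, 35.6 and 35.1 CPM with dDAVP, against 2.69, 5.67 and 3.86 CPM with vehicle. All 6 dDAVP libraries lay far above all 6 vehicle libraries, and the dDAVP values within a siRNA were close together. The rise was 8.72-fold with Ctnnb1 siRNA (log2 3.12, SE 0.167, edgeR adjusted p = 1.39e-07). With control siRNA it was 8.94-fold (log2 3.16, SE 0.170, 95% interval 2.80 to 3.53, edgeR adjusted p = 1.79e-07), which placed Pde4b at rank 4 by p and rank 21 by fold change among all tested genes. The reads behind this were 1659, 1610 and 1916 with dDAVP against 195, 192 and 168 with vehicle in Ctnnb1-siRNA cells. Pde4b kept its call with each siRNA under all 20 alternatives, with log2 fold changes of 2.61 to 3.20 with Ctnnb1 siRNA and 2.61 to 3.45 with control siRNA.

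Pde4d (gene ID 238871, chr13:108654177-109955969) encodes PDE4D, the isoform reported on aquaporin-2 vesicles of collecting duct cells together with an anchoring protein of protein kinase A. In Ctnnb1-siRNA cells it had 18.6, 19.1 and 26.9 CPM with dDAVP, against 7.98, 6.72 and 6.78 CPM with vehicle. In control-siRNA cells it had 26.3, 17.5 and 21.6 CPM with dDAVP, against 5.08, 6.08 and 5.94 CPM with vehicle. The dDAVP and vehicle libraries did not overlap, and the dDAVP values spread more widely than those of Pde4b. The rise was 3.01-fold with Ctnnb1 siRNA (log2 1.59, SE 0.164, edgeR adjusted p = 5.76e-05). It was 3.83-fold with control siRNA (log2 1.94, SE 0.168, edgeR adjusted p = 9.01e-06). The highest value with Ctnnb1 siRNA and dDAVP came from replicate 3, and without that library the log2 fold change was 1.40 (edgeR adjusted p = 3.21e-05).

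Pde4a (gene ID 18577, chr9:21165700-21213248) encodes PDE4A, another cAMP-specific isoform. It was a low-abundance gene here, with 108 to 269 reads per library. In Ctnnb1-siRNA cells it had 4.42, 3.84 and 5.67 CPM with dDAVP, against 3.75, 3.25 and 3.19 CPM with vehicle. In control-siRNA cells it had 5.02, 3.56 and 4.82 CPM with dDAVP, against 2.22, 3.22 and 2.56 CPM with vehicle. Within each siRNA all dDAVP libraries were above all vehicle libraries, by a narrow margin. The difference was 1.37-fold with Ctnnb1 siRNA (log2 0.45, SE 0.181, edgeR adjusted p = 0.257) and was not called. Without dDAVP replicate 3, the highest of these libraries, the log2 difference was 0.28 (edgeR adjusted p = 0.494). It was 1.69-fold with control siRNA (log2 0.76, SE 0.186, edgeR adjusted p = 0.0406) and was called. The average over both siRNAs was 1.52-fold (log2 0.60, 95% interval 0.33 to 0.88, edgeR adjusted p = 0.00876), with the groups overlapping across siRNAs. In that average 3 of 4 members were called higher, where 6.86% of tested genes were called, 4.33% higher and 2.54% lower. The control-siRNA call was at the edge of the threshold. It was lost with limma on log2 of TPM plus 1 (adjusted p = 0.107) and plus 0.1 (0.103), and without control-siRNA vehicle replicate 1 (0.173) or 3 (0.165) or control-siRNA dDAVP replicate 1 (0.170) or 3 (0.152). Among the Ctnnb1-siRNA libraries, which share the fit and the filter on low counts, it was lost without vehicle replicates 1, 2 or 3 (0.0523, 0.0645 and 0.0561) or dDAVP replicate 1 (0.0545). The call of the average was lost with limma on log2 of TPM plus 1 (0.0579) and plus 0.1 (0.0618).

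**Figure D1:**
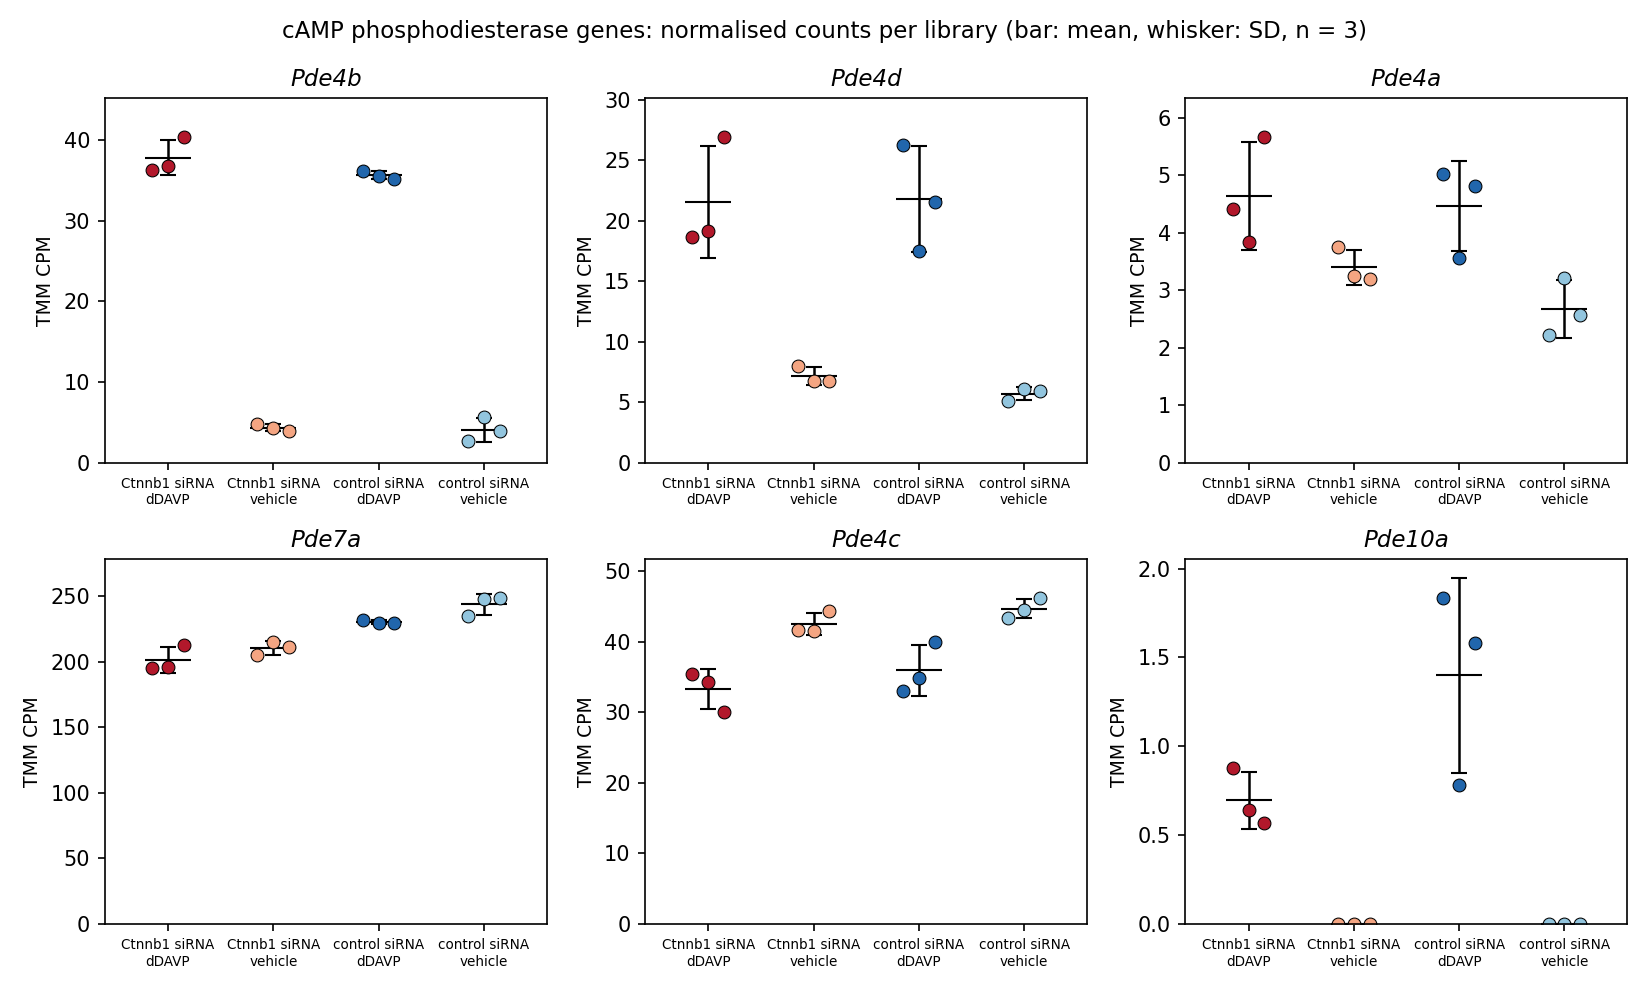
TMM-scaled CPM of the 4 tested members and of Pde4c and Pde10a, with 1 point per library, the mean as a bar and the SD as a whisker (n = 3 per group). Pde4b sits at 35.1 to 40.4 CPM in the dDAVP libraries and 2.69 to 5.67 CPM in the vehicle libraries, while Pde7a sits at 195 to 215 CPM in the Ctnnb1-siRNA libraries and 229 to 248 CPM in the control-siRNA libraries.

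Pde7a (gene ID 18583, chr3:19223108-19311322) encodes PDE7A, a rolipram-insensitive enzyme with high affinity for cAMP. In Ctnnb1-siRNA cells it had 195, 196 and 213 CPM with dDAVP, against 205, 215 and 211 CPM with vehicle. In control-siRNA cells it had 232, 229 and 229 CPM with dDAVP, against 235, 248 and 248 CPM with vehicle. The dDAVP and vehicle libraries overlapped with Ctnnb1 siRNA, and with control siRNA all 3 dDAVP values lay just below the vehicle values. The log2 difference was -0.065 with Ctnnb1 siRNA (SE 0.0476, 95% interval -0.17 to 0.04, edgeR adjusted p = 0.628). It was -0.081 with control siRNA (SE 0.0475, 95% interval -0.18 to 0.02, edgeR adjusted p = 0.476). Both intervals exclude a change of the size measured for Pde4b or Pde4d.

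Pde8a (gene ID 18584, chr7:81213265-81334535), which encodes an enzyme of very high cAMP affinity, had 0 reads in 11 libraries and 4 reads in Ctnnb1-siRNA dDAVP replicate 3. A count of 0 allows up to 0.0612 to 0.0895 CPM at these depths (3 reads per library, counting error only), so the gene was not detected in those 11 libraries.

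Knockdown of Ctnnb1 did not detectably alter the dDAVP responses of the PDE4 genes. The interaction, which is the dDAVP effect with Ctnnb1 siRNA minus that with control siRNA, was called by edgeR for 0 of the 4 members and for 0% of all tested genes. At an unadjusted p under 0.05 the counts were 0 members and 829 genes, and DESeq2 called 0 members and 1 gene. That 1 gene was Nr4a1, a CREB target, with a log2 difference of -0.56 (DESeq2 adjusted p = 0.00859). The difference in log2 response was -0.04 for Pde4b (95% interval -0.54 to 0.47), -0.35 for Pde4d (-0.84 to 0.15), -0.30 for Pde4a (-0.86 to 0.25) and 0.02 for Pde7a (-0.13 to 0.16). The intervals of the 3 PDE4 genes are wide enough to hold a weaker response after knockdown. Without Ctnnb1-siRNA dDAVP replicate 3 the differences were -0.09 for Pde4b, -0.54 for Pde4d and -0.47 for Pde4a, with adjusted p of 0.924, 0.410 and 0.521 in edgeR. For Pde4d and Pde4a this omission gave the largest differences. Leaving out any 1 library gave -0.33 to 0.20 for Pde4b, -0.54 to -0.19 for Pde4d and -0.47 to -0.18 for Pde4a.

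The member that followed the siRNA was Pde7a. All 6 Ctnnb1-siRNA libraries (195 to 215 CPM) lay below all 6 control-siRNA libraries (229 to 248 CPM). Averaged over both treatments it was 1.15-fold lower with Ctnnb1 siRNA (log2 -0.20, SE 0.0336, 95% interval -0.27 to -0.13, edgeR adjusted p = 0.00451). It was the only 1 of 4 tested members called in that average, where 1.85% of all tested genes were called, 0.939% higher and 0.909% lower. Treatment by treatment edgeR called 0 of 4 members. With dDAVP, where 0.267% of tested genes were called, 0.121% higher and 0.145% lower, Pde7a had a log2 difference of -0.19 (SE 0.0475, edgeR adjusted p = 0.113). With vehicle, where 0.43% of tested genes were called, 0.206% higher and 0.224% lower, it had -0.21 (SE 0.0475, edgeR adjusted p = 0.0755). In each treatment Pde7a was the 1 member with an unadjusted p under 0.05 in edgeR. So were 1925 of 16508 tested genes with dDAVP and 1336 with vehicle. DESeq2 called Pde7a with dDAVP (adjusted p = 0.00613) and with vehicle (0.00279). It called more genes in all, 237 with dDAVP and 177 with vehicle, against 44 and 71 in edgeR. Leaving out Ctnnb1-siRNA dDAVP replicate 3 also gave the call in edgeR, with dDAVP (adjusted p = 0.0209) and with vehicle (0.0132). The vehicle comparison does not hold that library but shares the fit. Genes called over the whole table rose as well without it, to 216 with dDAVP and 181 with vehicle. The siRNA differences of Pde4b, Pde4d and Pde4a were not called, with log2 values of 0.09, -0.01 and 0.06 with dDAVP and 0.12, 0.33 and 0.36 with vehicle.

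**Figure D2:**
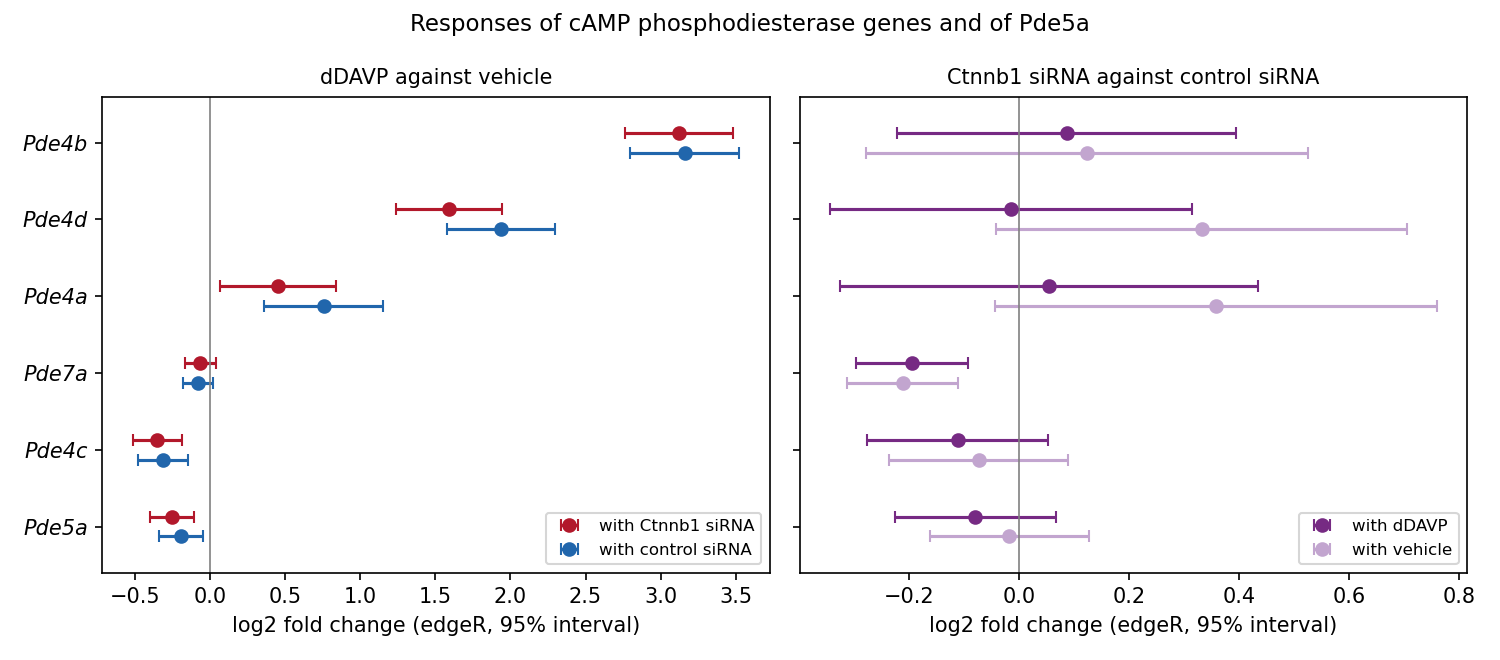
Log2 fold changes from edgeR with 95% intervals for the 4 tested members and for Pde4c and Pde5a, for dDAVP against vehicle (left, by siRNA) and Ctnnb1 siRNA against control siRNA (right, by treatment, on a narrower axis). Pde4b is near 3.1 with either siRNA, and Pde7a is the one plotted gene whose siRNA intervals, not adjusted for the number of genes, both lie below 0.

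Levels can be compared between genes only per transcript length, for which the deposited TPM was used. In Ctnnb1-siRNA cells Pde4b had 16.1, 16.3 and 19.5 TPM with dDAVP, against 2.23, 1.99 and 1.79 TPM with vehicle. In control-siRNA cells Pde4b had 17.9, 15.9 and 16.8 TPM with dDAVP, against 1.26, 2.79 and 1.93 TPM with vehicle. Pde4d stood at 2.81 to 5.02 TPM in the 6 dDAVP libraries and 0.930 to 1.33 TPM in the 6 vehicle libraries, and Pde4a at 1.30 to 2.42 and 0.760 to 1.46 TPM. Pde7a was first in every group, at 61.9 to 81.3 TPM in the dDAVP libraries and 70.8 to 96.2 TPM in the vehicle libraries. Pde4c, a PDE4 gene outside the chosen list, was second, at 18.0 to 24.6 and 24.1 to 30.1 TPM. Pde4b came next in all 4 groups, and with Ctnnb1 siRNA and dDAVP its values overlapped those of Pde4c. Pde4d and Pde4a overlapped in level with vehicle, and Pde4d was the higher of these 2 in every dDAVP library.

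Summed over the 10 cAMP-hydrolysing phosphodiesterase genes of the table, the total was 108 ± 8.71 TPM with dDAVP and 101 ± 1.09 TPM with vehicle in Ctnnb1-siRNA cells. It was 125 ± 4.84 TPM with dDAVP and 121 ± 10.4 TPM with vehicle in control-siRNA cells (SD, n = 3 each). Replicates 1, 2 and 3 of Ctnnb1 siRNA with dDAVP had sums of 103, 102 and 118 TPM, so that SD rests largely on replicate 3. Within each siRNA the sums differed by less than the SD of the more variable group, while the makeup differed. Pde4b made up 16.1 ± 0.490% of the sum with dDAVP and 1.98 ± 0.236% with vehicle in Ctnnb1-siRNA cells, and 13.5 ± 0.410% and 1.63 ± 0.571% in control-siRNA cells. Pde4d made up 3.54 ± 0.551% with dDAVP and 1.16 ± 0.149% with vehicle in Ctnnb1-siRNA cells, and 3.17 ± 0.785% and 0.853 ± 0.0905% in control-siRNA cells. The share of Pde7a was 60.9 ± 0.894% with dDAVP and 70.7 ± 0.0432% with vehicle in Ctnnb1-siRNA cells, and 64.1 ± 2.12% and 73.4 ± 0.394% in control-siRNA cells. Transcript shares say nothing of enzyme activity, which was not measured.

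**Figure D3:**
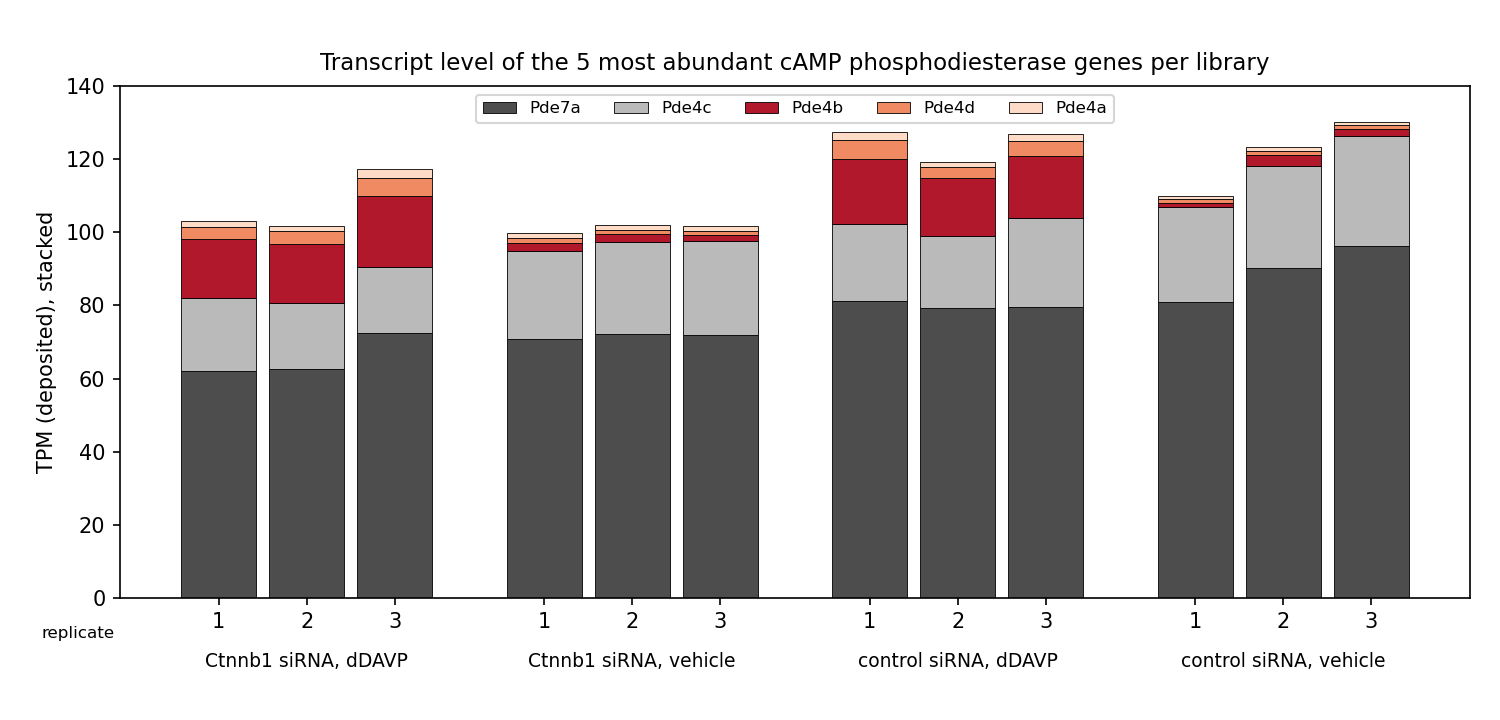
Deposited TPM of the 5 most abundant cAMP phosphodiesterase genes, stacked for each library. The dDAVP libraries carry a block of 15.9 to 19.5 TPM of Pde4b that is 1.26 to 2.79 TPM in the vehicle libraries, under totals that differ less.

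The difference in response among the PDE4 genes was tested on TPM ratios within a library, with an exact two-sided permutation of the dDAVP and vehicle labels within each siRNA (400 arrangements). The ratio of Pde4b to Pde4d was 4.97, 4.83 and 3.98 with dDAVP, against 1.68, 1.75 and 1.69 with vehicle, in Ctnnb1-siRNA cells. In control-siRNA cells it was 3.56, 5.67 and 4.08 with dDAVP, against 1.35, 2.38 and 1.93 with vehicle. No dDAVP library overlapped a vehicle library, and the ratio was 2.52-fold higher with dDAVP (log2 1.33, exact p = 0.005, adjusted over the 3 ratios 0.005). The ratio of Pde4b to Pde4a was 8.07 to 12.2 with dDAVP and 1.39 to 2.36 with vehicle, 5.63-fold higher (log2 2.49, exact p = 0.005, adjusted 0.005). That of Pde4d to Pde4a was 1.98 to 2.50 with dDAVP and 0.822 to 1.22 with vehicle, 2.24-fold higher (log2 1.16, exact p = 0.005, adjusted 0.005). Each p is the smallest this design allows. The order of response was thus Pde4b, then Pde4d, then Pde4a, with each step larger than the spread between libraries. The Pde4b to Pde4d ratio showed its widest spread in control-siRNA dDAVP replicates, where replicate 2 had the lowest Pde4d value of the 3.

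**Figure D4:**
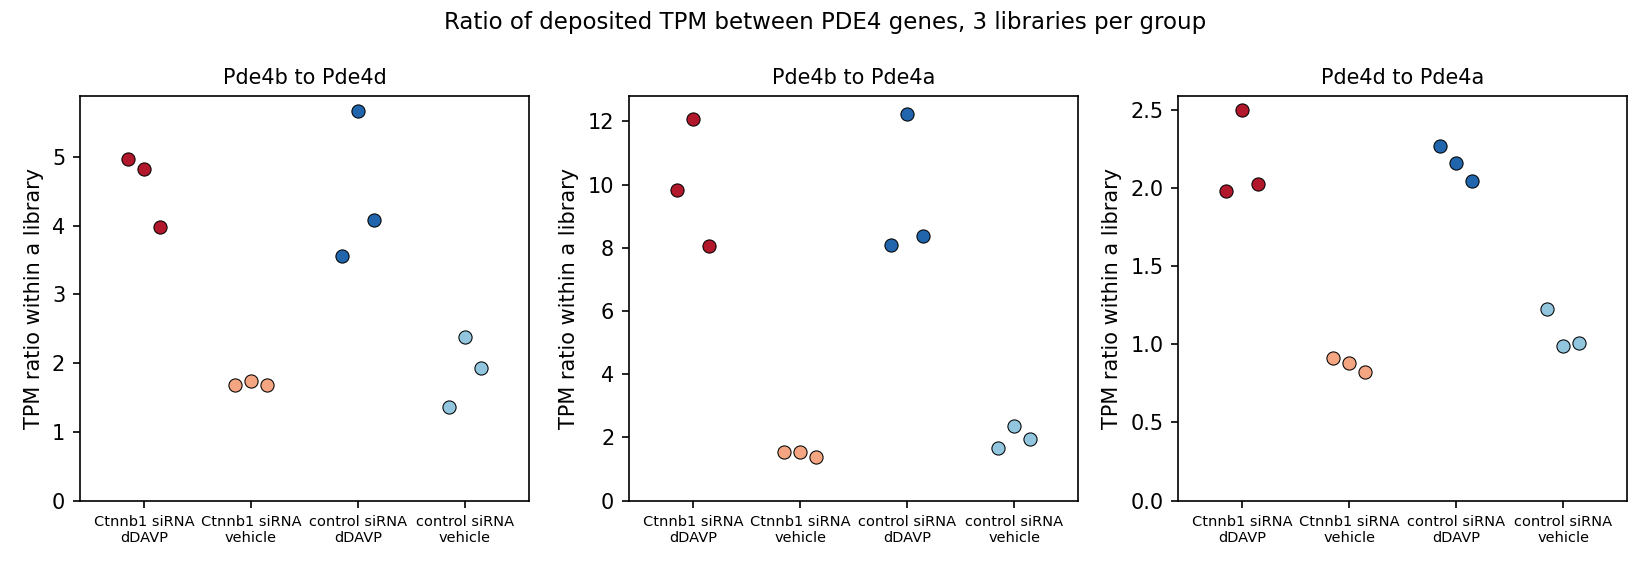
Ratios of deposited TPM between pairs of PDE4 genes, 1 point per library. In all 3 pairs the 6 dDAVP libraries lie above the 6 vehicle libraries, from 3.56 to 5.67 against 1.35 to 2.38 for Pde4b to Pde4d.

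Counts summed per gene do not separate long from short PDE4 forms. The ratio of counts to TPM gives the mean transcript length the authors' quantification implied, a calculation chosen after the table was seen. For Pde4b this was 3969 to 4265 bases in all 12 libraries, so the length assigned to its reads changed little while its level changed about 9-fold. For Pde4d it was 9957 to 12670 bases, and for Pde7a 5442 to 5919 bases. With Ctnnb1 siRNA, Pde4d had 10696, 9957 and 10995 bases with dDAVP, against 11914, 11441 and 12330 bases with vehicle. That difference (log2 -0.17, limma unadjusted p = 0.0388) was not called, and with control siRNA the Pde4d values of the treatments overlapped. For Pde4a it was 5025, 5004 and 4696 bases with dDAVP, against 5094, 4886 and 4770 bases with vehicle, in Ctnnb1-siRNA cells. In control-siRNA cells it was 4706, 5168 and 4818 bases with dDAVP, against 5760, 5684 and 5511 bases with vehicle. The control-siRNA vehicle libraries of Pde4a lay above the other 9, but the dDAVP difference (log2 -0.21, unadjusted p = 0.000885) was not called (limma adjusted p = 0.601), where 0.0224% of 8929 genes were called (0.0336% with Ctnnb1 siRNA). An implied mean length identifies no transcript.

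Of 8 other cAMP-hydrolysing phosphodiesterase genes on a list, 5 had a row and 3 were tested, and with each siRNA 1 was called higher and 1 lower with dDAVP. The lower one was Pde4c, with 35.5, 34.4 and 30.1 CPM with dDAVP against 41.7, 41.5 and 44.3 CPM with vehicle in Ctnnb1-siRNA cells. In control-siRNA cells Pde4c had 32.996, 34.8 and 39.989 CPM with dDAVP, against 43.4, 44.5 and 46.2 CPM with vehicle. It thus moved opposite to its 3 paralogs, by log2 -0.35 (edgeR adjusted p = 0.0203) and -0.31 (0.0405), and averaged -0.33 (0.00107). The call with Ctnnb1 siRNA was lost without any of its 3 vehicle replicates (0.0589, 0.0683 and 0.0932) or without dDAVP replicate 3 (0.0526), and that with control siRNA without any 1 of 8 libraries. These were its vehicle replicates 1, 2 and 3 (0.0781, 0.130 and 0.188), its dDAVP replicates 1 and 2 (0.188 and 0.0939) and Ctnnb1-siRNA vehicle replicates 1, 2 and 3 (0.0600, 0.0646 and 0.0596). The average kept its call in all 19 alternatives. The higher one was Pde10a, an enzyme that hydrolyses both cAMP and cGMP and is known for its abundance in striatal neurons. It had 40, 28 and 27 reads with dDAVP in Ctnnb1-siRNA cells and 72, 31 and 75 reads with dDAVP in control-siRNA cells, and 0 in all 6 vehicle libraries. Set against 3 reads per vehicle library, its dDAVP group mean was at least 9.87-fold higher with Ctnnb1 siRNA (edgeR adjusted p = 0.000668). With control siRNA that mean was at least 19.5-fold higher (0.000135), and single libraries can lie below these bounds. Pde10a passed the filter on low counts only through its dDAVP libraries, so its p-values carry that selection. The limma test on log2 of TPM plus 1 or plus 0.1, where such low values shrink, did not call it with Ctnnb1 siRNA (0.326 and 0.0672).

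Of 7 cGMP-selective phosphodiesterase genes 2 were tested, and edgeR called neither with either siRNA, while DESeq2 called Pde5a lower with Ctnnb1 siRNA (adjusted p = 0.0185). Pde5a, the target of sildenafil, had 31.4, 32.5 and 29.8 CPM with dDAVP against 39.6, 36.5 and 35.7 CPM with vehicle in Ctnnb1-siRNA cells. It had 32.3, 32.1 and 34.5 CPM with dDAVP against 34.7, 40.015 and 38.5 CPM with vehicle in control-siRNA cells. The groups did not overlap within either siRNA, and the average over both was called lower (log2 -0.22, SE 0.0482, edgeR adjusted p = 0.0088).

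The lists that follow hold genes that act around the phosphodiesterases, and their counts stand beside 2.78% of all tested genes called with Ctnnb1 siRNA and 2.83% with control siRNA. These lists too were chosen with earlier results of these data known, so their counts are descriptive. Of 18 tested genes for anchors and partners, 1 was higher and 1 lower with dDAVP with each siRNA. Akap12, an anchor of protein kinase A, had 339, 365 and 556 CPM with dDAVP against 135, 137 and 145 CPM with vehicle in Ctnnb1-siRNA cells, and 356, 319 and 306 CPM against 131, 131 and 125 CPM in control-siRNA cells. It rose 3.03-fold and 2.53-fold (edgeR adjusted p = 0.000109 and 0.000417). The value of 556 CPM was from Ctnnb1-siRNA dDAVP replicate 3, and without it the log2 rise was 1.34 with Ctnnb1 siRNA. Arrb1 encodes a beta-arrestin, a protein that recruits PDE4 enzymes to receptors. On the log2 scale it fell by 0.34 with Ctnnb1 siRNA and by 0.37 with control siRNA (edgeR adjusted p = 0.018 and 0.01). Arrb2, the other beta-arrestin gene on the list, was not called with either siRNA. Both Arrb1 calls were lost on log2 of TPM plus 1 (limma adjusted p = 0.119 and 0.0622) and plus 0.1 (0.122 and 0.0710). The call with Ctnnb1 siRNA was also lost in a fit of those 2 groups alone (0.0732) and without its vehicle replicates 1, 2 or 3 (0.0584, 0.0833 and 0.0705) or dDAVP replicate 1 (0.0709), and that with control siRNA without its vehicle or dDAVP replicate 3 (0.0725 and 0.0784).

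Among 11 tested genes of cAMP production, Avpr2 was the 1 called, the V2 receptor itself, by log2 0.43 with Ctnnb1 siRNA and 0.45 with control siRNA (edgeR adjusted p = 0.0106 and 0.00795). Those calls were lost without Ctnnb1-siRNA vehicle replicates 1 or 2 (0.0736 and 0.0538) and control-siRNA vehicle replicates 2 or 3 (0.0545 and 0.0583). Of 15 tested cAMP effector genes 2 were higher and 1 lower with each siRNA. Prkar2b, a regulatory subunit of protein kinase A, rose 1.38-fold with Ctnnb1 siRNA and 1.47-fold with control siRNA (edgeR adjusted p = 0.000832 and 0.000160). Crem, which gives rise to the cAMP-induced repressor ICER, rose by log2 0.59 and 0.68 (edgeR adjusted p = 0.00355 and 0.00101), with its Ctnnb1-siRNA call lost on log2 of TPM plus 1 (limma adjusted p = 0.105) and plus 0.1 (0.104). Pkia, an inhibitor peptide of protein kinase A, fell by 0.34 with Ctnnb1 siRNA and by 0.47 with control siRNA on the log2 scale (edgeR adjusted p = 0.0362 and 0.00512). The Ctnnb1-siRNA call of Pkia was lost without control-siRNA vehicle replicate 2 (0.0553), Ctnnb1-siRNA vehicle replicates 2 or 3 (0.169 and 0.136) or Ctnnb1-siRNA dDAVP replicates 2 or 3 (0.0947 and 0.0836). It was also lost in a fit of those 2 groups alone (0.0646) and with limma on log2 of TPM plus 1 (0.0824) and plus 0.1 (0.0782). Prkar1a, another regulatory subunit, was called in the average alone (log2 0.17, edgeR adjusted p = 0.0213). That call was lost with limma on log2 of TPM plus 1 (log2 0.11, adjusted p = 0.362) and plus 0.1 (0.360), and without replicate 1 of Ctnnb1-siRNA dDAVP, Ctnnb1-siRNA vehicle or control-siRNA dDAVP (0.0517, 0.0540 and 0.0557) or control-siRNA vehicle replicates 1 or 3 (0.0514 and 0.0540). Of the 3 efflux transporter genes, Abcg2 rose with Ctnnb1 siRNA (1.97-fold, edgeR adjusted p = 0.0072) and had a log2 difference of 0.69 with control siRNA (0.0802). The Ctnnb1-siRNA call was lost with limma on log2 of TPM plus 1 (0.0537) and plus 0.1 (0.0561), and without Ctnnb1-siRNA dDAVP replicate 3 the log2 rise was 0.77 (edgeR adjusted p = 0.0236). Without Ctnnb1-siRNA dDAVP replicate 3 the control-siRNA difference was called (0.0240), as it was with DESeq2 (0.0226). Abcc4 was called in the average (log2 0.17, edgeR adjusted p = 0.0159), a call lost with limma on log2 of TPM plus 1 (log2 0.11, adjusted p = 0.379) and plus 0.1 (0.376) and without Ctnnb1-siRNA vehicle replicate 2 (0.0549).

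Of 18 tested CREB target genes, 8 were higher and 0 lower with Ctnnb1 siRNA, with a median log2 change of 0.30 against -0.0049 over all tested genes. With control siRNA 7 were higher and 0 lower, with a median of 0.38 against -0.0042. The list was chosen with earlier results of these data known, so these counts and medians describe and do not test. The nuclear receptor gene Nr4a1 rose 2.31-fold and 3.39-fold, the kinase gene Sik1 1.71-fold and 1.77-fold, the G protein regulator gene Rgs2 2.55-fold and 3.27-fold, and Fos 1.76-fold and 1.80-fold, with Ctnnb1 siRNA and control siRNA in that order (edgeR adjusted p of 6.72e-05 or less). Of 5 tested Wnt feedback genes, 0 were called with dDAVP in Ctnnb1-siRNA cells (edgeR, Myc at log2 0.26, adjusted p = 0.141) and 1, Myc, was higher in control-siRNA cells (log2 0.45, edgeR adjusted p = 0.00674). That Myc call was lost with limma on log2 of TPM plus 1 (0.0552) and plus 0.1 (0.0532), and the difference between the siRNAs was log2 -0.19 (edgeR adjusted p = 0.918). With Ctnnb1 siRNA against control siRNA, 1 of the 5 was called lower in each treatment. Of all tested genes, 0.267% were called in that comparison with dDAVP and 0.43% with vehicle. Of the 18 CREB target genes, 3 were lower and 0 higher in it with dDAVP. With vehicle 1 was lower and 1 higher. In the average over both treatments 5 of the 18 were lower and 0 higher, where 1.85% of tested genes were called.

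The genes most like each responsive member over the 12 libraries were ranked by Pearson's r of log2 CPM among 11116 genes. The 12 points share libraries and the dDAVP treatment, so these values describe and do not test. For Pde4b they were Baiap2l2 (0.992), Chp1 (0.988), Sik1 (0.981) and Nod2 (0.980). For Pde4d they were Adora1 (0.991), Egfr (0.989), Sik1 (0.989) and Crem (0.987). For Pde4a they were Slc5a3 (0.943), Me1 (0.938), Cpeb2 (0.938) and Atxn1 (0.935). Within groups, after group means were taken out, r was 0.313 to 0.590 for the genes of Pde4b. It was 0.793 to 0.951 for those of Pde4d and 0.804 to 0.869 for those of Pde4a. Sik1 was among the 4 for both Pde4b and Pde4d, and none was shared with Pde4a.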

How the data were processed

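The 12 libraries, 3 in each of 4 groups taken from the labels, held total RNA without ribosomal RNA. Libraries were made with a stranded kit, per the labels' protocols; whether counting used strand is not given in the sources used here. Per the submitters' processing notes, FastQC, Trimmomatic, HISAT2, StringTie and DESeq2 were used on GRCm38 (mm10), with no versions given. The authors deposited unnormalised read counts per gene and TPM values per gene in one table. All columns were mapped to samples.

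The members and gene lists were chosen with earlier results of these data known. Counts were tested with edgeR 4.0.16 in R 4.3.3: genes were filtered by filterByExpr (16508 genes, 99.968% of reads), libraries scaled by TMM, and a robust quasi-likelihood model fitted to all 12 libraries, 1 mean per group, with Benjamini-Hochberg adjustment over all tested genes. The common biological coefficient of variation was 8.26%. Ratios of deposited TPM were tested by exact permutation (numpy 2.4.6 in Python 3.11.15). Scripts were tested on simulated data. Implied lengths were scaled on 3038 genes with 1 transcript, of whose values 67.1% came within 5% of the annotated length, and tested with limma 3.58.1 where TPM was at least 0.5. The floor for a count of 0 was 3 reads per library.

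The 8 members were always named. From each of 8 lists up to 4 called genes were named by smallest p of the average dDAVP effect. For called members the 4 genes of highest r (mean CPM at least 1) were named. Coordinates and promoter windows are from RefSeq, GRCm38.p6. Same-group libraries differed by 5.34 to 69.4 times counting error (chi-square per degree of freedom), so none was counted as a duplicate. Alternatives were DESeq2 1.42.0, its size factors, no filter or a stricter one, limma on log2(TPM + 1), a replicate block, fitting only the pair of groups in question, and leaving out 1 library at a time. The implied lengths and limma on log2 of TPM plus 0.1 were added after the data were seen.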

Additional observations from a re-analysis of the deposited data

How the results depend on the processing

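Under the alternatives run, the count of called members with dDAVP was 2 with Ctnnb1 siRNA and 2 to 3 with control siRNA. It was 2 to 3 in the average dDAVP effect, 1 in the average siRNA effect and 0 in the interaction. The Pde4a call with control siRNA was lost in 11 of 20 alternatives. No member changed direction in a called contrast. The member count for Ctnnb1 siRNA against control siRNA was 1 in place of 0 with DESeq2 in both treatments and, with vehicle, in a fit of the 2 groups compared. It ranged from 0 to 1 over the fits without 1 library in both treatments, being 1 without Ctnnb1-siRNA dDAVP replicate 3. The gene was Pde7a each time. Over all members, 530 fold changes under alternatives kept their side of the threshold, 13 lost a call (all Pde4a) and 5 gained one (all Pde7a). All 45 alternatives of the PDE4 ratios kept their direction and an exact p under 0.05, with log2 values of 1.22 to 1.43 for Pde4b to Pde4d, 2.40 to 2.57 for Pde4b to Pde4a and 1.11 to 1.21 for Pde4d to Pde4a.

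The number of genes called over the whole table depended more on the setting. It ranged from 210 to 728 for dDAVP with Ctnnb1 siRNA (459 as reported) and from 240 to 843 with control siRNA (467). It ranged from 5 to 237 for the siRNA with dDAVP (44), from 18 to 255 with vehicle (71), from 172 to 606 for the average siRNA effect (305), and from 0 to 2 for the interaction (0). DESeq2 alone gave 728, 757, 237, 177 and 565 for the first 5 of these in that order.

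The labels do not say whether a replicate number marks a shared culture or day. Correlations showed no pairing by number, which does not show that the samples were unpaired. The correlation of deviations from group means between same-numbered libraries was -0.086 to 0.072, over 0.1 in 0 of 18 pairs, and 3 of 12 libraries correlated best outside their group with their own number. With the replicate block, the counts of called members were 2 and 2 for dDAVP with Ctnnb1 siRNA and control siRNA, Pde4a with control siRNA having adjusted p = 0.0660. Of the other named genes, the block also ended the dDAVP calls of Pde4c with control siRNA (0.0647) and of Pkia with Ctnnb1 siRNA (0.050012). Called members under the block numbered 0 for the siRNA with dDAVP, 0 for the siRNA with vehicle and 0 for the interaction. They numbered 3 for the average dDAVP effect and 1 for the average siRNA effect. The block moved the genes called to 415 and 408 for dDAVP with Ctnnb1 siRNA and control siRNA. Each PDE4 ratio had an exact p of 0.03125 under the block. The depth limits Pde8a, and Pde4a at 108 to 269 reads.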
